A study of Mus musculus with 20 samples.

Results

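Regulatory T (Treg) cells of Peyer's patches (PP) were compared with Treg cells of peripheral lymph nodes (pLN) by microarray. The comparison took every array whose label names Treg cells, which was 5 of the 20 arrays of the series. They were 2 arrays of PP, 2 arrays of pLN on day 12 after immunisation (d12) and 1 array of pLN on day 25 (d25). All mice were of the reporter strain B6.Cg-Foxp3<tm1Mal>, in which cells that express Foxp3 carry green fluorescent protein (GFP). The mice were 8 to 14 weeks old, and each array held RNA pooled from 8 to 15 mice of both sexes. For pLN, the mice had received keyhole limpet haemocyanin (KLH) with alum under the skin of the flanks and the draining nodes were taken, whereas the labels of the PP samples name no immunisation. The paper's methods speak of cells sorted from PP or pLN on day 12 or 25 after immunisation, so PP donors may also have been immunised. Treg cells were sorted as CD4+ GFP+ cells that lacked B220, PD1 and GL7. RNA input was 50 ng for PP array 1 and pLN d12 array 1 and 40 ng for the other 3 arrays. Each slide held cells of 1 tissue and day only, hence tissue, slide and any difference in immunisation cannot be told apart in this comparison.

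Treg cells restrain immune responses and depend on the transcription factor Foxp3. Those of the gut are exposed to food and microbial antigens and to retinoic acid, a vitamin A metabolite that dendritic cells of the gut produce and that drives expression of gut homing receptors. Access to peripheral tissues such as skin relies on other molecules, among them fucosylated selectin ligands and the chemokine receptor Ccr10.

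The sorted cells expressed the genes that define Treg cells. Foxp3 was at a normalised intensity of 26173 and 14718 in PP and of 35129, 29850 and 25436 in pLN (d12 array 1, d12 array 2 and d25, the order used throughout). Normalised intensity is a relative unit with a floor of 20, and values at the floor have no order. Il2ra, Ctla4, Ikzf2, Lrrc32 and Tnfrsf18 were likewise well above background on all 5 arrays. Of 39429 probes, 43.0% to 54.4% were detected on a Treg array and 0 were saturated. PP array 1 had the highest signal for markers of several other cell types. The summed intensity of 14 B-cell markers was 123810 there against 17076 on PP array 2 and 11632 to 20310 in pLN, and that of 17 markers of intestinal epithelium was 60407 against 15431 and 4327 to 9147. Every main result is therefore given also without that array where this changed its call.

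In PP Treg cells, limma called 568 of 22264 tested probes (2.55%), 439 higher and 129 lower than in pLN Treg cells, where a call is an adjusted p under 0.05 and a log2 fold change of at least 1. Collapsed to 1 probe a gene, 422 of 14486 genes were called, which is 2.91%. Of these, 323 genes rose (2.23%) and 99 fell (0.683%). All 422 separated the tissues without overlap of any array, a pattern also present in 35.4% of all tested genes. Some rises also differed widely among the pLN arrays. Top3b was at 69080 and 35576 in PP and at 1586, 4772 and 21557 in pLN, and Pnldc1 at 21198 and 11015 against 621, 1310 and 6239. Olfr1152, Adam34 and Dcx had the same order of arrays, with pLN d25 nearest to PP. The cause of this order was not tested, so the count of rises need not be a count of tissue differences. Of the 323 genes that rose, 158 were not above background on any pLN array, and of the 99 that fell 17 were not above background on either PP array. The lowest detected intensity was 41 and 28 in PP and 20, 90 and 144 in pLN, so a faint gene was less readily detected on pLN d12 array 2 and pLN d25. Without PP array 1, 113 of the 323 rises and 34 of the 99 falls kept their call (1.24% of all tested genes were called in that fit in the direction of the full one), and without PP array 2 the numbers were 165 and 31. The count of called probes was 250 without PP array 1, 308 without PP array 2, 358 without pLN d12 array 1 and 311 without pLN d12 array 2. When the 3 Treg groups alone entered the fit, which leaves 2 residual degrees of freedom, limma called 0 probes, with 2491 at an unadjusted p under 0.05. With slide as a random block 152 of the rises and 31 of the falls kept their call, where 1.35% of all tested genes were called. Of the genes named below, Tmem273, Wnt10a, Tspan17, Wscd2, Gzmm, Il10, Il21, Cxcr5, Itgb1, Izumo1r, Nt5e, Tgfb1, Maf, Stra6, Ccr10, Fosl2, P2ry14, Cd22, Cd8b1, Cdh1, Col3a1, Gzma and Klrd1 lost their call under that block, with adjusted p from 0.051 for Gzmm to 0.14 for Maf. Without slide 4, which held PP array 1, calls were lost for Asb2, Cybb, Wnt10a, Fut7, Wscd2, Acvr1, Aldh5a1, Gzmm, Il10, Il21, Cxcr5, Itgb1, Vdr, Lag3, Izumo1r, Nt5e, Tgfb1, Maf, Tgm2, Stra6, Ccr10, Fosl2, P2ry14, Cd8b1, Col3a1 and Gzma, with adjusted p from 0.055 for Lag3 to 0.20 for Izumo1r. The background for each count of called list members below is 2.23% for rises and 0.683% for falls. Lists and members were chosen with earlier results of these data known, so an excess over this background does not test a list.

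Genes of retinoid handling and response were among the leading rises. Of 16 tested genes on a list of retinoid and vitamin D receptors, enzymes and response genes, 7 rose, 0 fell and 9 were not called, and the median log2 fold change was 1.38 against -0.05 over all tested genes. With genes that were below background in 1 tissue set to their bound, and those without a bound to 0, the median was 0.55, against -0.03 over all tested genes. Without PP array 1 the median was 0.67 and 5 of the 7 rises kept their call. The paper of these data had already named Dhrs3, Asb2 and Vdr from its arrays, so the list is not independent of them. The probe values are drawn in the plot of leading genes.

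Cyp26b1, which oxidises retinoic acid to inactive products, was at 2133 and 1964 in PP and not above background on the 3 pLN arrays (32, 25 and 88). It was at least 27.6-fold higher in PP (adjusted p = 1.6e-07, limma), with its probe at chr6:84521952-84522011 of mouse assembly mm9. In some other groups of the fit both arrays of Cyp26b1 were at the floor. Such pairs add no spread, so this p rests in part on the floor. Dhrs3, which reduces retinaldehyde back to retinol, was at 9230 and 8917 in PP and at 454, 388 and 445 in pLN. Its arrays of each tissue lay close together, and the log2 fold change was 4.41 (SE 0.18, adjusted p = 2.3e-06, limma, probe at chr4:144517485-144517544, mm9). Stra6, the membrane receptor that takes up retinol from its carrier protein, was at 1096 and 1026 in PP and at 162, 215 and 267 in pLN. The groups did not overlap and the log2 fold change was 2.33 (SE 0.35, adjusted p = 0.0062, limma). Without PP array 1, Stra6 kept its fold change (2.29) and lost its call (adjusted p = 0.056).

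Hic1, a transcriptional repressor, was at 4486 and 3015 in PP and at 103, 104 and 127 in pLN, where 1 of 3 arrays was above background. The log2 fold change was 5.06 (SE 0.26, adjusted p = 1.2e-05, limma, probe at chr11:74978107-74978166, mm9), and a second Hic1 probe was called in the same direction (3.18). Asb2, a substrate receptor of a ubiquitin ligase, was at 6205 and 4605 in PP and at 281, 209 and 95 in pLN (adjusted p = 0.0010, log2 fold change 4.91, SE 0.51). A second Asb2 probe behaved otherwise, with 3371 and 195 in PP and 1749, 2241 and 129 in pLN (log2 fold change 0.03), so the rise of Asb2 rests on 1 of 2 probes. Tgm2, a transglutaminase, was at 6321 and 2964 in PP and at 500, 606 and 622 in pLN. Its log2 fold change was 2.92 (SE 0.43, adjusted p = 0.0065, limma), and 2.37 (adjusted p = 0.063) without PP array 1. Vdr, the vitamin D receptor, was faint, at 79 and 102 in PP and at the floor on all pLN arrays. It was called higher in PP (adjusted p = 0.0057, limma), but its PP values lay under the lowest detected intensity of pLN d25 (144). No fold is therefore given for Vdr. The Vdr call was lost without PP array 2, with pLN d25 alone and with a floor of 100, where the log2 fold change was 0.01.

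Among members that were not called, Rarg, a retinoic acid receptor, was at 5855 and 5894 in PP and at 5086, 4655 and 5802 in pLN. Rdh10, which makes retinaldehyde from retinol, was at 273 and 443 in PP and at 212 to 300 in pLN. Aldh1a2, which makes retinoic acid, was at 94 and 83 in PP and at 64, 51 and 52 in pLN (log2 fold change 0.67, adjusted p = 0.49, limma). Crabp2, a carrier of retinoic acid, was at 2368 and 918 in PP and at 1178 to 2727 in pLN, so the groups overlapped.

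**Figure D1:**
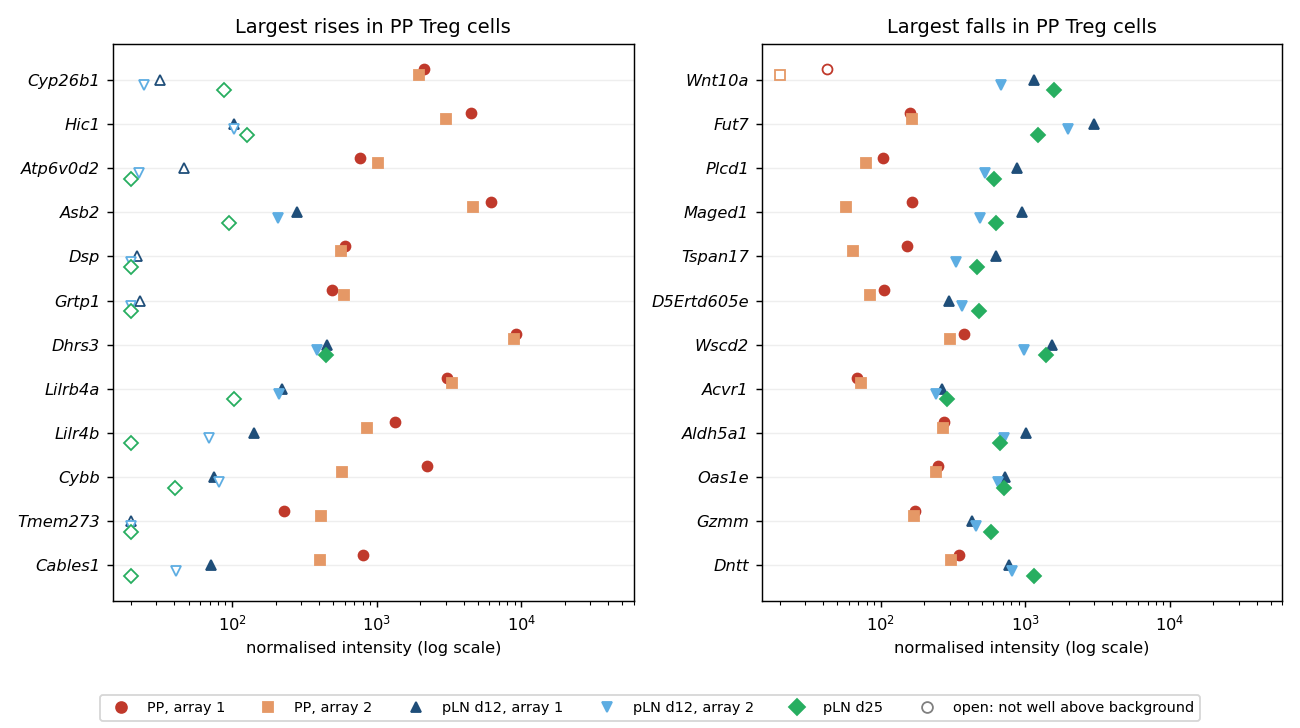
Normalised intensity (log axis) of the 12 genes with the largest fitted rise and the 12 with the largest fitted fall in PP Treg cells, with 1 point per array and open symbols where the probe was not well above background. Both PP arrays lie to one side of the 3 pLN arrays for every gene shown, which the selection of these genes required, and Cyp26b1 and Wnt10a are open on every array of the lower tissue.

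Promoter windows of the 3 genes of the retinoid and vitamin D list with the lowest adjusted p are printed below, since receptors for retinoic acid bind DNA at pairs of a 6-base half-site. Each is the 250 bases upstream of a RefSeq start site (GRCm38.p6) and reads 5′ to 3′ on the strand of the gene, with capitals for a half-site on either strand. The first form searched was AGGTCA, present in 14.0% of all RefSeq windows of this length. The second form was GGGTCA, in 11.6% of them. The third was AGTTCA, in 11.8%, and the last was GGTTCA, in 8.85%. The windows lie at chr6:84593811-84594060 (minus strand), chr11:75170256-75170505 (minus strand) and chr4:144892577-144892826 (plus strand).
Cyp26b1: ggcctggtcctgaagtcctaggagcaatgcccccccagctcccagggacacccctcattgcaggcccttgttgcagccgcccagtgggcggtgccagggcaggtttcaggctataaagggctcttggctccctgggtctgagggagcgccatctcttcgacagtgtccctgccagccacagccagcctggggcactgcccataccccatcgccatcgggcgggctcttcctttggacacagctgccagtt
Hic1: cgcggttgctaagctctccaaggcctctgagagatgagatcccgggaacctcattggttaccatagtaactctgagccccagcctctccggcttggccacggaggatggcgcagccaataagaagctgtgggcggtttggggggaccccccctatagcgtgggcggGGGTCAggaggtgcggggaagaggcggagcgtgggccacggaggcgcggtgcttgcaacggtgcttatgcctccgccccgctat
Dhrs3: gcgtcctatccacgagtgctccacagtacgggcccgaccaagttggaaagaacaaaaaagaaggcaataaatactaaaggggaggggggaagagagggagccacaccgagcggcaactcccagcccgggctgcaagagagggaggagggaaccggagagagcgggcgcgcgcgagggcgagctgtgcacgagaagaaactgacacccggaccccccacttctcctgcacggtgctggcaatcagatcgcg
The half-site of Hic1 starts 84 bases before the start site, and the windows of Cyp26b1 and Dhrs3 hold none. Of the 7 genes of the list that rose, 6 had a RefSeq entry, Tgm2 being the other one, and 3 of their 13 windows held at least 1 half-site, belonging to Hic1 and Vdr. Among all 32851 RefSeq windows of this length, 38.6% held at least 1. Direct repeats named DR3 and DR5 were in 0 of the 13 windows, and in 0.0396% and 0.0883% of all windows.

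The other leading rises were genes of diverse function. Atp6v0d2, a subunit of the proton pump of acidic vesicles, was at 767 and 1018 in PP and not above background in pLN (46, 23 and 20), at least 10.5-fold higher. Dsp, which codes for the junction protein desmoplakin, was at 600 and 563 in PP and not above background in pLN (22, 20 and 20), at least 8.8-fold higher (adjusted p = 2.4e-06, limma). Grtp1 was at 494 and 594 in PP and at 23, 20 and 20 in pLN, none above background, which gave at least 8.11-fold. Tmem273 was at 227 and 416 against the floor in pLN (at least 4.82-fold), and lost its call without PP array 2 (adjusted p = 0.095).

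Lilrb4a and Lilr4b, paired receptors of the leukocyte immunoglobulin-like family, both rose, but their sequences are nearly identical and their probes may not tell them apart. Lilrb4a was at 3085 and 3304 in PP and at 222, 211 and 103 in pLN (log2 fold change 4.24, SE 0.44), and Lilr4b at 1346 and 860 against 141, 69 and 20 (4.21, SE 0.35). Cybb, the catalytic subunit of the phagocyte NADPH oxidase, was at 2235 and 577 in PP and at 75, 82 and 41 in pLN (4.17, SE 0.60), so the PP arrays lay far apart although both were above pLN. Cables1, a partner of cyclin-dependent kinases, was at 802 and 408 against 71, 41 and 20 (3.88, SE 0.35).

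The largest falls included a secreted signal and an enzyme of selectin ligand synthesis. Wnt10a, a Wnt ligand, was at 1144, 684 and 1581 in pLN and not above background in PP (42 and 20), which made it at least 31.2-fold lower in PP (adjusted p = 0.0037, limma). Fut7, the fucosyltransferase that completes selectin ligands, was at 160 and 164 in PP and at 2972, 1958 and 1225 in pLN. The PP arrays were nearly equal, and Fut7 fell by 3.57 on the log2 scale (SE 0.41, adjusted p = 0.0016, probe at chr2:25281802-25281861, mm9). A second Fut7 probe was called in the same direction.

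Plcd1, a phospholipase C, was at 104 and 79 in PP and at 879, 525 and 610 in pLN (log2 fold change -2.86, SE 0.28). Maged1 was at 166 and 57 against 947, 484 and 624 (-2.76, SE 0.41), and Acvr1, a type I receptor of the bone morphogenetic protein family, at 69 and 73 against 263, 241 and 287 (-1.89, SE 0.23). Among genes of lymphocyte function, Gzmm, a granzyme, was at 171 on both PP arrays and at 429, 454 and 580 in pLN (-1.50, SE 0.20). Dntt, the polymerase that adds untemplated nucleotides at antigen receptor joints, was at 345 and 307 in PP and at 766, 810 and 1152 in pLN (-1.46, SE 0.20). Oas1e, of the oligoadenylate synthetase family, was at 248 and 240 against 722, 647 and 713 (-1.51, SE 0.17). The remaining falls of the leading 12 were D5Ertd605e (-1.98), Aldh5a1 (-1.53), Wscd2 (-1.92) and Tspan17 (-2.22). Without PP array 2, Wscd2 and Tspan17 lost their calls (adjusted p = 0.068 and 0.061).

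Receptors that position T cells differed in both directions. On a list of 19 chemokine and lipid receptors, 3 rose, 1 fell and 15 were not called (median log2 fold change 0.59). Ccr9, which directs cells to the small intestine, was at 22494 and 9905 in PP and at 1600, 1444 and 1562 in pLN. It rose by 3.28 on the log2 scale (SE 0.36, adjusted p = 0.0013, probe at chr9:123690334-123690393, mm9), and a second probe was called in the same direction. Ccr10, a receptor for ligands of skin and mucosal epithelium, was at 733, 623 and 776 in pLN and not above background in PP (34 and 20), at least 20.9-fold lower (adjusted p = 0.011). The Ccr10 call was lost without PP array 1 (adjusted p = 0.057) and without PP array 2 (0.095).

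Cxcr5, the receptor for the B-cell follicle chemokine, was at 15156 and 9071 in PP and at 4260, 3233 and 3071 in pLN (log2 fold change 1.75, SE 0.30, adjusted p = 0.012, limma). Without PP array 1 the fold change was 1.38 and the adjusted p 0.095. Ccr6 was at 9914 and 7236 against 6808, 4369 and 4499 (0.73, adjusted p = 0.33), and Ccr7, the lymph node homing receptor, was at 94490 and 87307 against 97490, 93710 and 103238 (-0.11). Cxcr4, at 2985 and 2444 against 1148, 310 and 505, was not called (2.26, adjusted p = 0.083).

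Among 12 selectin and selectin ligand genes Fut7 was the single call, and the median log2 fold change was -0.18. Gcnt1, which builds the branched glycan core of these ligands, was at 519 and 183 in PP and below all 3 pLN arrays (1842, 1085 and 884), with a log2 fold change of -1.97 that was not called (adjusted p = 0.14, limma). Selplg, the protein backbone of the ligand, was at 64922 and 40337 against 55602, 50894 and 53547 (-0.06).

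Of 16 integrin chains, 1 rose and 1 fell, with a median of 0.54, and of 0.40 with genes at their bounds. Itgb1, the β1 chain, was at 1811 and 2110 in PP and at 8692, 6383 and 4648 in pLN (log2 fold change -1.70, SE 0.27, adjusted p = 0.0085, limma). The groups were well apart, but the call was lost without PP array 1 (adjusted p = 0.074), and a second probe was not called (-1.84, adjusted p = 0.052). Itga5, the chain of the fibronectin receptor, was the rise, at 137 and 128 in PP and not above background in pLN (38, 32 and 44). Both PP values lay under the lowest detected intensity of pLN d25 (144), so no fold is given. The gut homing chain Itgb7 was at 67085 and 54494 in PP and at 70969, 101354 and 97806 in pLN (-0.56, adjusted p = 0.29). Itga6 was at 12076 and 9942 against 17665, 15766 and 14755 (-0.55, adjusted p = 0.20), and Itgae, which pairs with Itgb7, at 4660 and 2911 against 4444, 2278 and 1715 (0.51, adjusted p = 0.60).

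**Figure D2:**
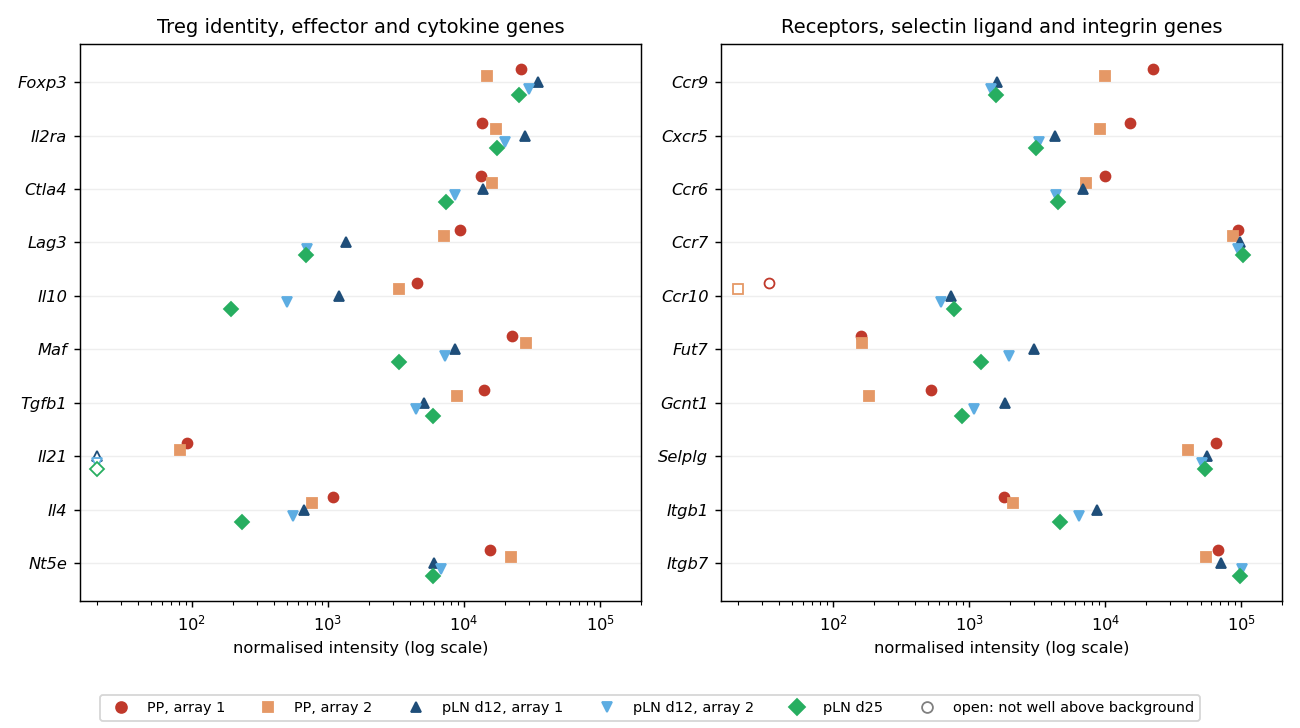
Normalised intensity (log axis) of Treg identity, effector and cytokine genes (left) and of receptor, selectin ligand and integrin genes (right), with 1 point per array and open symbols where the probe was not well above background. Ccr9 lies between 1444 and 1600 on the 3 pLN arrays and between 9905 and 22494 in PP, whereas Foxp3 overlaps between the tissues.

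Few identity genes of Treg cells were called, and the effector genes Il10, Lag3, Maf and Tgfb1 rose. Of 18 identity genes 2 rose, 0 fell and 16 were not called (median 0.10). Foxp3 was not called (log2 fold change -0.61, SE 0.32, adjusted p = 0.38, limma), and Il2ra, the high-affinity chain of the interleukin-2 receptor, was at 13579 and 17257 in PP and at 28054, 20081 and 17418 in pLN (-0.48, adjusted p = 0.69). Nt5e, the ectoenzyme that makes adenosine, was at 15507 and 22019 against 6061, 6811 and 5918 (1.56, SE 0.28, adjusted p = 0.014). The Nt5e call was lost without PP array 2 (adjusted p = 0.13). Izumo1r, folate receptor 4, was at 75034 and 63913 against 42512, 26896 and 29341 (1.10, SE 0.26, adjusted p = 0.049), and its call was lost without PP array 1 (0.20), PP array 2 (0.15), pLN d12 array 2 (0.11) or pLN d25 (0.10).

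Of 22 effector and tissue Treg genes, 4 rose and 0 fell (median 0.51). Lag3, an inhibitory receptor that binds MHC class II, was at 9291 and 7131 in PP and at 1354, 698 and 689 in pLN (log2 fold change 3.23, SE 0.31, adjusted p = 0.0008, limma), and kept its call without either PP array. Il10, the suppressive cytokine, was at 4527 and 3338 in PP and at 1212, 503 and 194 in pLN. Its rise of 2.98 (SE 0.56, adjusted p = 0.018, probe at chr1:132920943-132921002, mm9) lost the call without PP array 1 (2.76, adjusted p = 0.11), PP array 2 (3.20, 0.083) or pLN d25 (2.32, 0.090). Maf, a transcription factor that drives Il10, was at 22369 and 28621 against 8604, 7236 and 3311 (2.10, SE 0.36, adjusted p = 0.013). Its call was lost without PP array 1 (0.062), PP array 2 (0.11) or pLN d25 (0.059), while a second Maf probe was also called (2.52). Tgfb1 was at 13983 and 8951 against 5057, 4410 and 5958 (1.13, SE 0.26, adjusted p = 0.043). That call was lost without any 1 of the 5 arrays, with the adjusted p between 0.050 without pLN d25 and 0.22 without PP array 1. Fgl2, Ccr8, Gzmb and Tigit were not called (1.77, 1.31, 0.42 and 0.79).

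On the list of 11 type 17 and microbiota-induced Treg genes 2 rose, Maf among them (median 0.73, and 0.13 with genes at their bounds), and Il17a and Il17f were not above background on any Treg array. Gata3, of the type 2 programme, was at 5120 and 11259 against 5867, 9023 and 7935 (0.02). None of 7 type 2, 11 type 1 or 4 aryl hydrocarbon receptor pathway genes was called, with medians of 0.02, 0.22 and 0.17. For these 3 lists and the others without a call, the fit across all probes had 3915 at an unadjusted p under 0.05.

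On a list of 16 follicular genes 4 rose (median 0.69, and 0.56 with genes at their bounds), namely Cxcr5, Maf, Il21 and Angptl2. Il21, a helper cytokine, was faint, at 93 and 82 in PP and at the floor in pLN (adjusted p = 0.011, limma). Its PP values lay under the lowest detected intensity of pLN d25 (144), so no fold is given. The Il21 call was lost without PP array 1, without PP array 2, with pLN d25 alone and with a floor of 100, where the log2 fold change was 0. Angptl2 was at 130 and 154 against the floor in pLN, at least 2.22-fold higher (adjusted p = 1.9e-05, limma). PP array 1 lay under the lowest detected intensity of pLN d25 (144), and with a floor of 100 the rise of Angptl2 fell under the fold threshold. Bcl6, the master regulator of follicular T cells, was at 7034 and 4213 in PP and at 3431, 4429 and 3964 in pLN (0.47, adjusted p = 0.47), and Il4 at 1085 and 762 against 668, 555 and 234 (1.04, adjusted p = 0.43). Of 18 cytokine genes Il10, Il21 and Tgfb1 rose (median 0.13, and 0.00 with genes at their bounds).

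Other lists held at most 1 call in a direction. Fosl2, an AP-1 factor, rose among 19 antigen receptor response genes (1.30, adjusted p = 0.012, median of the list 0.27), a call lost without PP array 1 (0.088) or PP array 2 (0.068). Atf3, of the heat shock and dissociation list of 9 genes, was at 67 and 48 in PP and at 22, 23 and 20 in pLN, none above background there (median of the list 0.19, and 0.03 with genes at their bounds). Atf3 was called (adjusted p = 0.0026, limma), but its PP values lay under the lowest detected intensity of pLN d12 array 2 and pLN d25, so no fold is given, and the call was lost with a floor of 100 and with normexp background correction (adjusted p = 0.066). Lag3 was the single call among 17 inhibitory and costimulatory receptors (median 0.43) and Tgfb1 the single call among 16 TGF-beta pathway genes (0.17). Among 10 purine ectoenzymes and receptors (median -0.05) Nt5e rose and P2ry14 fell by 1.23 (adjusted p = 0.046), and the P2ry14 call was lost without any 1 of the 5 arrays (adjusted p from 0.096 without pLN d25 to 0.21 without PP array 1).

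Some lists without a single call had most members on 1 side of all pLN arrays. All 19 interferon response genes were uncalled, 12 of them were below all pLN arrays on both PP arrays, where 21.1% of all tested genes were, and their median was -0.76. Ifit3 was at 1869 and 2065 in PP and at 4641, 7159 and 7259 in pLN (-1.66, adjusted p = 0.20), and Irf7 at 2114 and 1732 against 3589, 3114 and 3014 (-0.76, adjusted p = 0.13). Among 14 genes of S100 proteins, galectins, annexins and the cytoskeleton, 9 lay below all pLN arrays (median -0.51). S100a4 was at 15477 and 9914 in PP and at 58728, 38935 and 33821 in pLN (-1.78, adjusted p = 0.13), and S100a6 at 7562 and 5764 against 39827, 26852 and 17331 (-2.00, adjusted p = 0.066). Of 15 genes of cholesterol synthesis and uptake, 13 lay above all pLN arrays, where 14.3% of all tested genes did, with a median of 0.64. Sqle, an early enzyme of the sterol branch, was at 4975 and 5239 against 2813, 3357 and 3859 (0.62, adjusted p = 0.057), and Fdft1 at 6261 and 5086 against 3858, 3237 and 3306 (0.71, adjusted p = 0.056). Without PP array 1 these 3 medians were -0.80, -0.64 and 0.60.

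The remaining lists held 0 calls. Their medians were -0.38 for 18 cell cycle genes, 0.02 for 15 genes of resting T cells, -0.01 for 14 genes of the interleukin-2 receptor and STAT5 response, 0.02 for 22 cytokine receptors and 0.11 for 15 glycolysis genes. Il27ra, of the cytokine receptors, was at 17182 and 12520 against 9746, 10034 and 9683 (0.58, adjusted p = 0.15). The 11 MHC class II genes had a median of 1.81, and of 0.09 without PP array 1. Cd74, the invariant chain, was at 111730 on PP array 1, 7472 on PP array 2 and 4469 to 6818 in pLN. Ciita, the activator of MHC class II genes, was at 34046 and 16120 against 359, 1712 and 7971 (3.79, SE 0.95, adjusted p = 0.060, limma). The pLN arrays of Ciita lay far apart, and the order of its arrays was that of Top3b and Pnldc1.

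**Figure D3:**
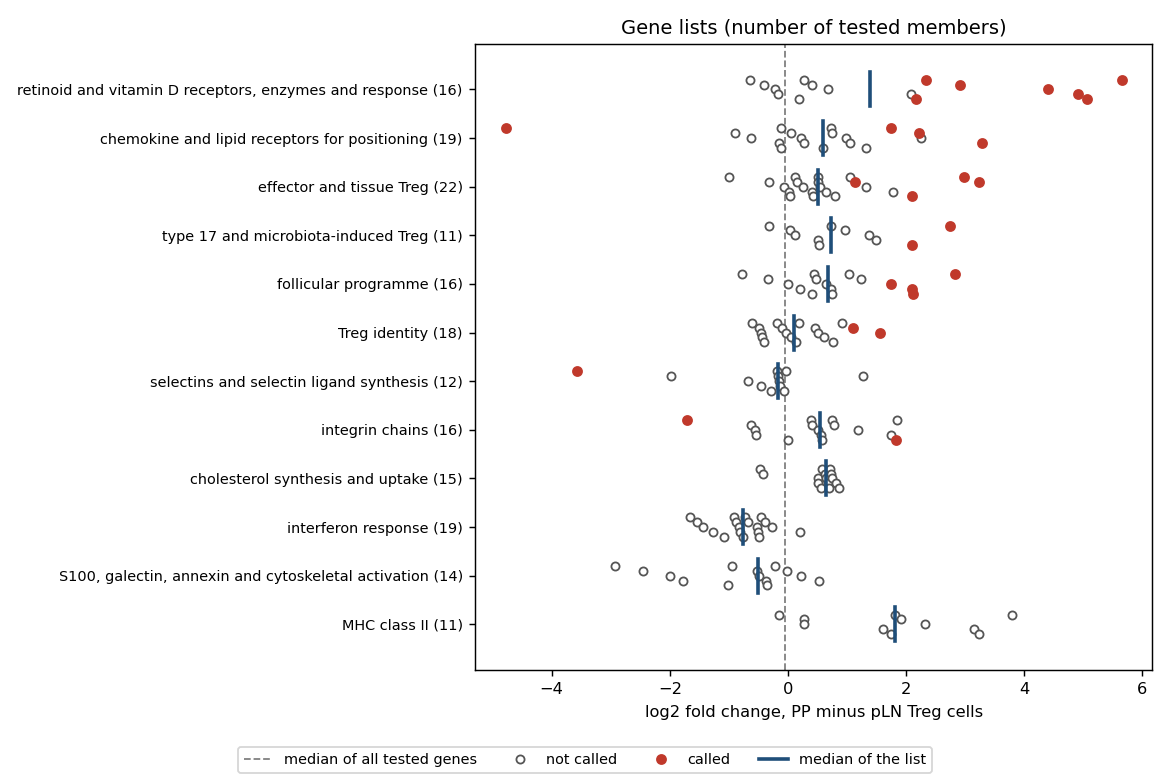
Log2 fold change of PP over pLN Treg cells for each tested member of 12 gene lists, filled where called, with a bar at the median of each list and a dashed line at the median of all tested genes (-0.05). The retinoid and vitamin D list has 7 filled points, all to the right, and the interferon, S100 and cholesterol lists have none.

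The same tissue comparison was made in other T cells of the series. T follicular regulatory (TFR) cells are Foxp3+ cells with high PD1, and T follicular helper (TFH) cells are Foxp3- cells with high PD1, taken here as the GL7+ fraction. Their PP arrays and pLN arrays lay on the same slides as the Treg arrays, so slide cannot be told apart from tissue there either. In TFR cells 12.3% of genes were called between PP and pLN (6.58% higher and 5.76% lower in PP), and in TFH cells 5.41% (2.71% higher and 2.69% lower). Of the 323 genes that rose in Treg cells, 243 were called higher in PP also in TFR cells, of 953 such genes, and 103 in TFH cells, of 393. Of the 99 falls, 69 were called lower in TFR cells (of 835) and 46 in TFH cells (of 390).

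Fut7, Itgb1, Hic1 and Wnt10a were called with 1 sign in Treg, TFR and TFH cells. Hic1 was at 4287 and 6329 in PP TFR cells and at 2183 and 2788 in PP TFH cells, against 40, 50 and 96 in pLN TFR cells and 24, 27 and 50 in pLN TFH cells, the latter not above background. Fut7 was at 268 and 343 in PP TFR cells and at 9934, 10235 and 7312 in pLN TFR cells, a log2 fold change of -4.90, and it had -4.68 in TFH cells. Ccr9 was called in TFR cells (4.52) and not in TFH cells (1.32).

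The tissue difference of Treg cells was tested against that of the other cells as a difference of log2 fold changes. Against TFR cells 135 genes were called (0.932%), and against TFH cells 86 (0.594%). The arrays compared share slides, and with slide as a fixed block the called probes went from 178 to 1079 against TFR and from 110 to 695 against TFH. Cyp26b1 was above background on 1 TFR array (36, in PP) and on no TFH array, and stayed between 20 and 36 in all 10 of those samples. The difference was called against TFR (adjusted p = 1.7e-05, limma) and against TFH (adjusted p = 5.2e-06), and both calls remained under all 23 alternatives. Its size depends on the floor, since pLN Treg cells and nearly all TFR and TFH arrays were below background, and was 4.36 against either cell type with a floor of 100. Both adjusted p also rest in part on the floor, since array pairs at the floor add no spread. Dhrs3 rose in TFR cells too, from 1263, 1503 and 1970 in pLN to 10793 and 15052 in PP. TFH cells held high levels in both tissues, 4114, 4914 and 8159 in pLN and 8990 and 8109 in PP, and the difference was 1.37 against TFR (adjusted p = 0.038) and 3.77 against TFH (adjusted p = 0.0002). The Dhrs3 difference against TFR was lost under 14 of 23 alternatives, among them leaving out either PP Treg array (adjusted p = 0.15 and 0.11). The Dhrs3 difference against TFH was kept under all 23.

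Dsp was at 316 and 479 in PP TFR cells and at 115, 136 and 147 in pLN TFR cells, and at 328 to 975 in TFH cells. The rise in Treg cells was called as larger than that in TFR cells (3.25, adjusted p = 0.0012, limma) and that in TFH cells (3.97, adjusted p = 0.0002), but these sizes rest on pLN Treg values below background. With a floor of 100 they were 0.98, no longer called (adjusted p = 0.100), and 1.70, and the call against TFR was also lost without slide 4 (adjusted p = 0.061). Il10 was not called in TFR cells (adjusted p = 0.059) and fell in TFH cells. It was at 463 and 1345 in PP TFR cells and at 1671, 2305 and 4382 in pLN TFR cells, and in TFH cells it was at 1358, 582 and 125 in pLN and not above background in PP. The Il10 difference was 4.69 against TFR (SE 0.79, adjusted p = 0.027) and 7.13 against TFH (SE 0.79, adjusted p = 0.0040). Against TFR the Il10 call was lost without PP Treg array 1 (4.47, adjusted p = 0.12), PP Treg array 2 (4.90, 0.072), pLN d25 Treg (4.02, 0.076), PP TFR array 1 (3.92, 0.091) or either pLN d12 TFR array (4.99 and 4.76, 0.059 and 0.065).

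**Figure D4:**
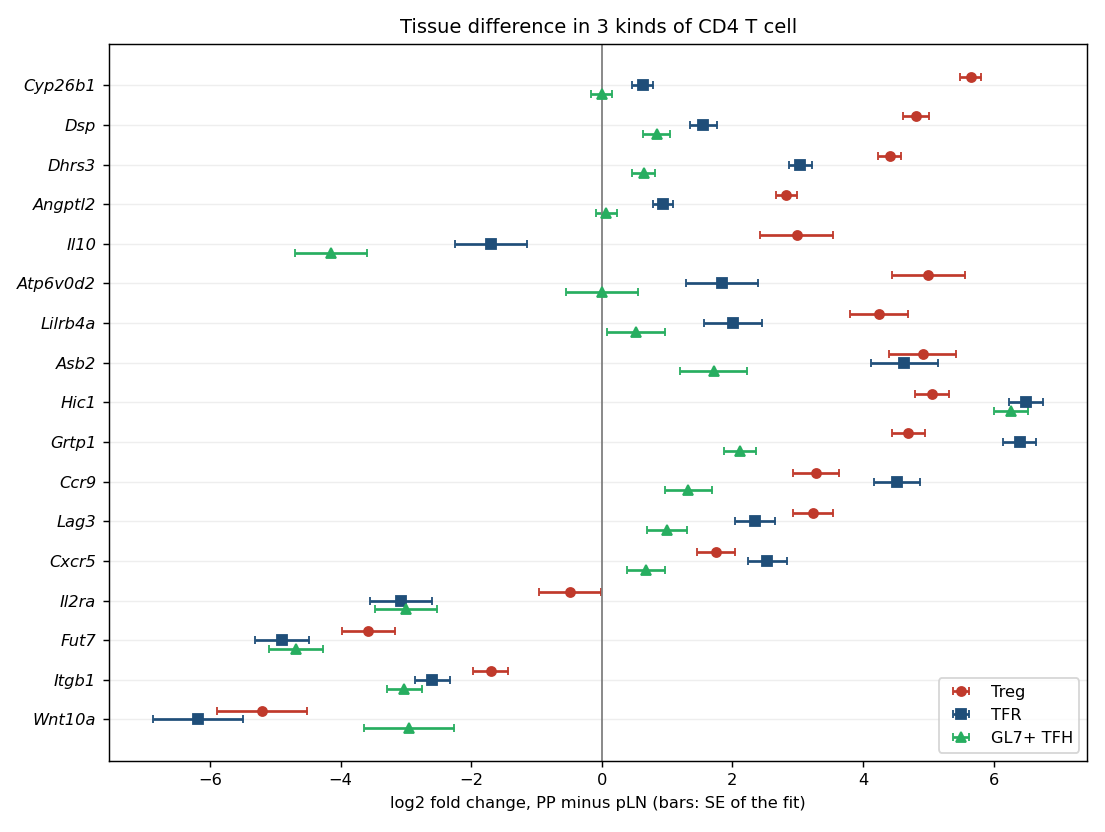
Log2 fold change of PP over pLN for 17 genes in Treg, TFR and GL7+ TFH cells, with bars for the standard error of the fit (2 PP and 3 pLN arrays per cell type). Values of Cyp26b1, Dsp, Angptl2, Atp6v0d2 and Grtp1 in Treg cells rest on pLN arrays below background and so depend on the floor, Il10 lies right of 0 in Treg cells and left of it in the others, and Fut7 and Wnt10a lie left of 0 in all 3.

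RNA of other cell types was present to unequal extent, as the plot of marker sums shows, and its part in the results above was not tested. The 9 T-cell markers summed to 641862 to 725730 on all 5 arrays. Of the 14 B-cell markers, 14 and 12 were above background in PP and 10, 11 and 7 in pLN, with a median log2 fold change of 1.97 (1.60 with genes at their bounds), and of 0.10 without PP array 1. Cd22, an inhibitory receptor of B cells, was the single call, at 5470 and 4138 in PP and 1250, 1409 and 2265 in pLN. Of the 17 epithelial markers, 16 and 9 were above background in PP and 5, 5 and 4 in pLN (median of 11 tested genes 2.30, 1.60 with genes at their bounds, and 0.65 without PP array 1). Cdh1, E-cadherin, was called (145 and 73 in PP, none above background in pLN, adjusted p = 0.021), and not without PP array 1 (adjusted p = 0.14), pLN d12 array 1 (0.069) or pLN d12 array 2 (0.071). The alpha-defensin genes Defa1, Defa23, Defa28, Defa40 and Defa42, which are not on the epithelial list, were also called higher in PP. Defa1 was at 701 and 248 in PP and at 34, 20 and 20 in pLN (log2 fold change 4.13). The calls of these defensin genes were lost without PP array 1 and with slide as a random block. The 5 plasma cell markers summed to 58851 and 2966 in PP and to 17330, 24503 and 1342 in pLN. In whole sorted samples like these, fewer cells of a type and less RNA per cell cannot be told apart.

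Of 6 tested markers of CD8 T and NK cells, Gzma, a granzyme, rose (22744 and 7169 against 1809, 1251 and 1598, log2 fold change 3.06), and Klrd1 and Cd8b1 fell (-2.56 and -1.35). The Cd8b1 call was lost without any 1 of the 5 arrays (adjusted p from 0.071 without pLN d25 to 0.25 without PP array 2). Col3a1, a collagen of stromal cells, was at 232 and 186 in PP and not above background in pLN (at least 3.03-fold), the single call among 6 tested stromal and endothelial markers. The 4 germinal centre B-cell, 4 plasma cell, 10 myeloid, 4 Foxp3- CD4 T-cell, 2 neutrophil, 1 erythroid and 9 T-cell markers tested held 0 calls, with medians of 2.02, 0.35, 0.31, -0.44, -1.68, 0.54 and -0.21. With genes at their bounds the first 5 of these medians were 1.4, 0.20, 0.21, -0.35 and -1.49.

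**Figure D5:**
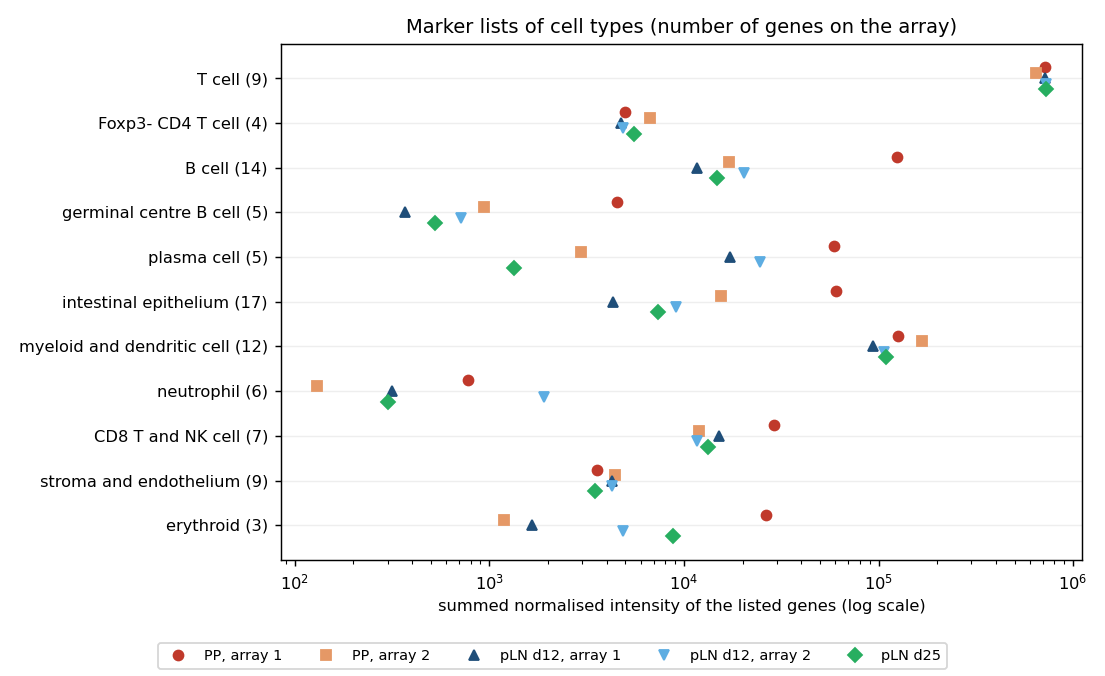
Summed normalised intensity (log axis) of the genes of 11 marker lists on each Treg array, with the number of genes on the array in parentheses. PP array 1 is the highest for B cells, germinal centre B cells, plasma cells, intestinal epithelium, CD8 T and NK cells and erythroid cells, and PP array 2 lies above all pLN arrays for germinal centre B cells, intestinal epithelium, myeloid cells, Foxp3- CD4 T cells and, by a small margin, stroma and endothelium.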

How the data were processed

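The 5 Treg arrays were read with the other 15 arrays of the series. The deposited scanner files hold feature intensity, which the authors extracted with Agilent Feature Extraction 10.7.3.1, as the submitters' processing notes name it, after background subtraction. As in the methods, features marked as outliers or of uneven pixels were left out, the 4 on-chip features of a probe were averaged, and arrays were set to common quantiles with 1500 as their 75th percentile. Values under 20 were raised to 20 before the log2 step. A probe was detected with at least 3 of 4 features well above background, and tested if detected on both arrays of any group of 2. Symbols came from RefSeq by accession (27592 of 39429 probes matched). For a gene with several probes the brightest was used.

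The model was 1 mean for each of 12 groups over 20 arrays (limma 3.58.1, R 4.3.3, lmFit and eBayes, 8 residual degrees of freedom), two-sided, with Benjamini-Hochberg adjustment over all tested probes. Arrays of a slide had a fitted correlation of 0.74 when slide was a random block. The main model leaves this correlation out, so its 8 degrees of freedom are not 8 independent measures of spread. A pair of arrays at the floor of 20 adds no spread. The SE and p of genes at the floor in some groups therefore rest in part on the floor. The contrast weighted the 3 pLN arrays equally. The d25 group of 1 array is assumed to vary like the others. An "at least" fold stands where no array of the lower group was above background. It was computed against the lowest signal detected on each array. That signal is not a strict upper limit for undetected probes. On pLN d12 array 1 it was 20, whereas Atp6v0d2, at 46 there, was not above background. These folds are therefore approximate. None is given for a rise with both PP values under the lowest detected intensity of a pLN array. On simulated data with this layout of groups, limma called 69.0% of the probes given a log2 change of 2 and 41.5% of those given 1.5. The simulated noise was independent between arrays, with no slide effect and no RNA of other cells. These shares therefore do not describe recovery where arrays of a slide vary together. Leading genes were the 12 largest rises and falls among calls that held without PP array 1 and did not overlap. They also had to be detected on all arrays of the higher tissue and be on no marker list of another cell type. The marker lists are short, so a leading gene may still be one that other cell types express. Unnamed clones, 16 of those that passed, were counted and not named. Members and gene lists were chosen with earlier results of these data known. The number of arrays limits the precision. A few genes are not reported here.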

Additional observations from a re-analysis of the deposited data

Results flagged for a closer look

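The tissue difference of Treg cells was called as different from that of TFR or TFH cells, by the test of the difference itself, for the genes below, each with the difference of log2 fold changes.

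Larger or more positive in Treg than in TFR cells were Cyp26b1 (5.02), Il10 (4.69), Dnah7a (4.5), Havcr2 (4.41), Stfa3 (4.40), Lmna (4.30), Dsp (3.25), Angptl2 (1.89) and Dhrs3 (1.37). Smaller or more negative were Ntrk3 (-3.89), Igf2bp2 (-3.94), Scnn1b (-4.00), Ascl2 (-4.01), Gal (-4.22) and Ccdc120 (-4.53). A called difference need not be a called change in Treg cells. Between PP and pLN Treg cells, Dnah7a (log2 fold change -1.49), Lmna (-0.49), Havcr2 (1.05), Ascl2 (-0.77) and Gal (-0.50) were not called.

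Against TFH cells the differences were 7.13 for Il10, 5.83 for Stfa3, 5.65 for Cyp26b1, 5.0 for Atp6v0d2, 4.81 for Art2a, 3.97 for Dsp, 3.77 for Dhrs3, 3.71 for Lilrb4a, 3.62 for Lilr4b, 2.76 for Angptl2, 2.58 for Grtp1, 2.12 for Fosl2, 1.83 for Itga5 and 1.49 for Atf3. They were -2.41 for Flrt2, -2.67 for Srgap1, -2.85 for Alox12, -2.98 for Gc, -4.24 for Npy and -4.62 for Smoc2.

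Stfa3, Scnn1b, Ccdc120, Flrt2, Alox12, Gc, Npy and Smoc2 were not above background on any Treg array, so their differences rest on the TFR or TFH arrays. The differences of Cyp26b1, Dsp, Angptl2, Atp6v0d2, Art2a, Grtp1, Itga5 and Atf3 rest on pLN Treg arrays below background, so their sizes depend on the floor. So does the size of the Il10 difference against TFH, since Il10 was below background on both PP TFH arrays (30 and 23). Of these calls, those of Cyp26b1 and Ntrk3 against TFR and of Cyp26b1, Dsp and Dhrs3 against TFH were kept under all 23 alternatives, and that of Smoc2 against TFH under the 22 in which it was tested.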

How the results depend on the processing

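The count of called probes between PP and pLN Treg cells was 568. It was 265 with slide as a random block, 1334 with RNA input as a covariate, 0 with the compared groups alone, 342 without slide 4, 142 with pLN d25 alone, and leaving out 1 array at a time gave 250 to 499. Tukey's test, which the methods name, compared PP with pLN d12 and gave 455 probes at an unadjusted p under 0.05 with the fold threshold, and 19 after adjustment. For the difference against TFR cells (178) it was 349 with a floor of 100, 307 without a filter, 75 over probes detected in Treg cells, 1191 and 1079 with slide as a random or fixed block, 695 with RNA input, 25 with the compared groups alone, 28 without slide 4 and 37 with pLN d25 alone (1 array left out: 59 to 186). Against TFH cells (110) it was 70 with normexp, 221 without a filter, 62 over probes detected in Treg cells, 723 and 695 with slide as a random or fixed block, 302 with RNA input, 29 with the compared groups alone, 19 without slide 4, 72 with pLN d12 alone and 25 with pLN d25 alone (38 to 99). The cause of these shifts was not tested. The Angptl2 difference against TFR reversed with a floor of 100 (-0.43). Of 52 named genes called between the tissues, 0 changed sign and 14 kept their call under every alternative except the compared groups alone and Tukey's test. No analysis paired by replicate number was made because the labels carry no such numbers, and slide was the shared unit tried as a block. Signal near background limits the faint genes, given as approximate bounds where one exists. With a floor of 100 the rises of Vdr, Il21, Angptl2, Itga5 and Cdh1, among others, fell under the fold threshold.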
